A study of Homo sapiens with 12 samples.

Results

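The NRF2 antioxidant and detoxification genes described here were 35 genes chosen by name, of 23459 genes in the deposited count table, and all 35 had a row in it. They were chosen with earlier results of these data known, so the shares of them called below are descriptions and not tests of the list. They comprise regulators of the transcription factor NRF2 and genes that NRF2 is known to switch on. RNA was measured by poly(A) RNA sequencing in 12 libraries of MCF10A, a non-tumorigenic human mammary epithelial cell line. The cells carried a doxycycline-inducible allele of YAP5SA, a YAP mutant insensitive to inhibition by the Hippo pathway, and received by lentiviral infection either a vector for JUN or an empty one. They then received doxycycline at 100 ng/ml (Dox) or its solvent ethanol (EtOH), which gave 3 libraries for each of the groups called vector EtOH and vector Dox, with the empty vector, and JUN EtOH and JUN Dox. The inducible allele was thus present in the control cells too, and the vector supplied JUN in addition to the cells' own gene. No group received doxycycline without the allele, so effects of YAP5SA and of doxycycline itself cannot be told apart. Induction below means doxycycline against ethanol. The replicates are described as biological in the study's methods.

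NRF2, encoded by NFE2L2, is held in the cytoplasm and sent for degradation by KEAP1. Electrophiles and oxidants modify KEAP1, NRF2 then accumulates, pairs with small MAF proteins and binds antioxidant response elements (AREs) near its targets, and BACH1 competes for the same elements as a repressor. The core of an ARE resembles the site bound by AP-1, the family of dimers to which JUN belongs. NRF2 protein is controlled mainly by its stability, so the RNA of NFE2L2 alone does not report its activity.

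Promoter sequences are shown first because the ARE core and the AP-1 site can share letters. A RefSeq table of promoters (GRCh38.p14, 250 bases before to 50 after a transcription start) matched 27 of the 35 genes, with 40 windows. No window was matched for GSR, PRDX1, AKR1B10, ALDH3A1, HMOX1, FTH1, ABCC1 and ABCC3. The ARE core was searched as TGACNNNGC and the AP-1 site as TGACTCA or TGAGTCA, both on either strand. The ARE core stood in 12 of the 40 windows (30%) and in 13.35% of all 35116 windows in the table. The AP-1 site stood in 5 of the 40 (12.5%) and in 4.95% of all windows. The 11 genes with an ARE core were CBR1, EPHX1, GCLM, GPX2, GSTP1, KEAP1, ME1, MGST1, PGD, PIR and TXNRD1, and the 5 with an AP-1 site were BACH1, GSTP1, ME1, OSGIN1 and PIR. A run that is both at once, TGACTCAGC on either strand, stood in GSTP1, ME1 and PIR, and in 0.561% of all windows. The stretches below, with matches in capitals, are from genes that were called in a comparison or hold both motifs. They lie upstream of the start on the gene's own strand, except that of PIR, which runs from 12 to 41 bases after it.
KEAP1, chr19:10502792-10502841, minus strand: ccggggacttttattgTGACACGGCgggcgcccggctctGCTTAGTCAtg
TXNRD1, chr12:104215659-104215708, plus strand: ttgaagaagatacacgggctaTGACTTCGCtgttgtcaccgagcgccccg
EPHX1, chr1:225825254-225825303, plus strand: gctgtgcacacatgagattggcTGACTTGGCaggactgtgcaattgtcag
GSTP1, chr11:67583722-67583771, plus strand: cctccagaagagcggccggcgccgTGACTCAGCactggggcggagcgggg
ME1, chr6:83431162-83431211, minus strand: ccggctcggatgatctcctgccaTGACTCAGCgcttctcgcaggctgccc
PIR, chrX:15493292-15493321, minus strand: gccggccgcgaagcGCTGAGTCAcggtgag
BACH1, chr21:29298852-29298901, plus strand: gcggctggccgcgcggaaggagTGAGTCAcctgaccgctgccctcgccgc
These matches are letters in a window and not measured binding sites.

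Total counts were 18594867 to 28993487 per library. Levels are in CPM, the count scaled to library size by TMM, and 3 counts, taken as the detection floor, corresponded to 0.107 to 0.15 CPM. Intervals and floors given here cover counting error only. The labels were checked with JUN, which was at 47.6 ± 10.5 CPM (SD) in vector EtOH and 189.7 ± 4.15 in vector Dox, with 1279 ± 187 in JUN EtOH and 1248 ± 92.3 in JUN Dox. JUN RNA was thus also higher after induction in vector cells, with a log2 fold change of 1.99 ± 0.16 (SE). YAP1 was at 179 ± 10.5 CPM in vector EtOH and 237 ± 31.5 in vector Dox and was not called (adjusted p = 0.0819), and whether reads of the YAP5SA transgene were counted under YAP1 is not given in the sources used here. All 7 basal epithelial markers were detected, and their summed level was 6976 to 7341 CPM in vector EtOH and 3799 to 4925 in vector Dox, with 5727 to 7238 in JUN EtOH and 3722 to 5658 in JUN Dox. In bulk RNA, fewer cells of a type and less RNA per cell cannot be told apart. The 6 luminal markers summed to 1282 to 1472 CPM in vector EtOH and 1522 to 1543 in vector Dox, with 708 to 930.2 in JUN EtOH and 511 to 883 in JUN Dox, with PGR at or under the floor. The leukocyte markers PTPRC, CD3E and LYZ were at or under the floor in all libraries, as were COL1A2 of the 6 fibroblast and CDH5 of the 4 endothelial markers. CD68, a macrophage marker that epithelial cells also express, was at 28.9 ± 0.978 CPM (SD) in vector EtOH and 18.2 ± 1.15 in vector Dox, with 84.8 ± 7.85 in JUN EtOH and 62.3 ± 10.0 in JUN Dox. The fibroblast sum, 111 to 162 CPM over all libraries, was mostly PDGFRA, while DCN had means of 5.97 and 3.15 CPM in vector EtOH and Dox against 17.7 and 12.2 in JUN EtOH and Dox, and LUM 0.732 and 0.72 against 6.09 and 4.24. The endothelial sum was 0.1 to 2.2 CPM, with PECAM1 at 1.75, 0.0601, 0.471 and 0.0862 in these groups. The basal sum, mostly KRT5 and KRT17, was lower with doxycycline in both backgrounds, although mean EGFR was higher with it (128 and 199.5 CPM with the empty vector, 189 and 277 with JUN). The luminal sum was lower and CD68 higher with the JUN vector, and the part of these in the results below was not tested. The log2 deviation of genes from their group mean followed GC content most in JUN Dox replicates 1 and 3, with r = -0.37 and 0.37 across 14281 genes, which are not independent. In JUN EtOH replicates 1 and 3 r was -0.214 and 0.229.

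Per kilobase of canonical transcript, FTH1 was the most abundant of the 35 genes in vector EtOH cells, at 4590 ± 548 CPM per kb (SD). FTH1 encodes the heavy chain of ferritin, the iron store. FTL followed with 743 ± 101, and GSTP1, a glutathione transferase, with 620 ± 79.4, and the libraries of this pair overlapped. TXNRD1, PRDX1 and MGST1 came next at 448 ± 37.7, 399 ± 34.4 and 374 ± 31.4 CPM per kb, each overlapping its neighbour. NQO1 stood at 108 ± 8.21, NFE2L2 at 45.5 ± 0.738 and KEAP1 at 41.7 ± 1.21 CPM per kb. The lowest were BACH1 at 6.65 ± 0.802, OSGIN1 at 2.36 ± 0.612, HMOX1 at 1.23 ± 0.205, AKR1B10 at 1.16 ± 0.136 and GPX2 at 0.14 ± 0.0289 CPM per kb. Together the 35 genes took 0.819% to 1.39% of a library's counts. GPX2, a glutathione peroxidase, had 0 to 8 counts in each library and did not pass the filter on low counts, so 34 of the 35 genes were tested.

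**Figure D1:**
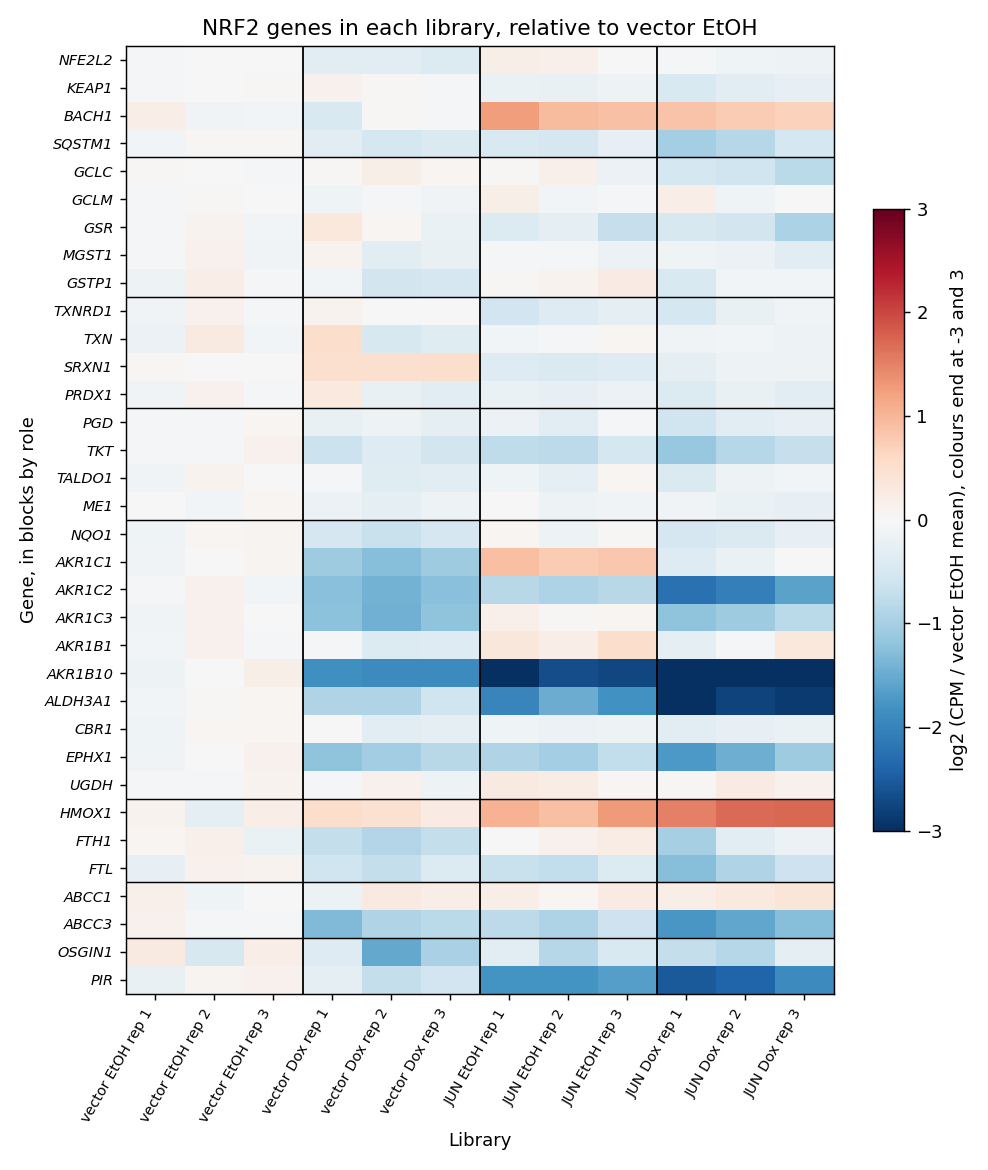
Heat map of the 34 tested genes (rows, in blocks by role) in the 12 libraries (columns), coloured by log2 of the ratio of CPM to the vector EtOH mean. AKR1C1, AKR1C2 and AKR1C3 were lower in both Dox groups than in the EtOH group of the same vector, and AKR1B10, ALDH3A1 and PIR were lower in both JUN groups, in which BACH1 and HMOX1 were higher.

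Induction of YAP5SA in vector cells lowered more of these genes than it raised. Of the 34 tested, 15 fell and 1 rose at an adjusted p under 0.05, against 14.4% and 15.6% of all 14775 genes tested. The genes that fell were NFE2L2, SQSTM1, TKT, NQO1, AKR1C1, AKR1C2, AKR1C3, AKR1B10, ALDH3A1, EPHX1, FTH1, FTL, ABCC3, OSGIN1 and PIR, and the gene that rose was SRXN1. The 15 made up 44.1% of the 34. Of the 10 quinone, carbonyl and xenobiotic enzymes 7 fell, among them all 5 genes whose log2 fold change was beyond 1 in size. These were EPHX1, AKR1B10, at 11 to 47 counts per vector library, and AKR1C1, AKR1C2 and AKR1C3, which can share reads and so are not fully separate measurements. The median log2 fold change was -0.25 over the 34 genes and 0.0072 over all genes tested, and 27 of the 34 values were below 0. Without vector Dox replicate 1 the median was -0.385. Leaving out 1 library gave 11 to 20 lower genes and 1 higher, where 3326 to 4865 of all genes tested were called in either direction. The call of FTL was lost without vector EtOH replicate 2 or 3 (adjusted p = 0.0539 and 0.053), and those of SQSTM1, PIR and OSGIN1 are taken up below.

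In JUN cells, induction lowered 10 of the 34 genes and raised 1, against 10.3% and 11.2% of all genes tested. SQSTM1, GCLC, NQO1, AKR1C1, AKR1C2, AKR1C3, ALDH3A1, EPHX1, FTH1 and ABCC3 fell, and HMOX1 rose. The 2 induction comparisons share no library, and 9 genes fell in both, which were these apart from GCLC, or 26.5% of the 34 against 7.8% of all genes tested. The median over the 34 genes was -0.22, and over all genes 0.0032, and 29 values were below 0. Without JUN Dox replicate 1 or replicate 2 only 6 genes were lower, where 3163 of 14966 and 2310 of 14960 genes were called in either direction. HMOX1 lost its call without JUN EtOH replicate 1 or 2 or JUN Dox replicate 2 or 3 (adjusted p = 0.0843, 0.114, 0.0816 and 0.0762).

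The JUN vector without induction lowered 12 of the 34 genes and raised 3, against 18.9% and 20.1% of all genes tested. SQSTM1, GSR, TXNRD1, SRXN1, TKT, AKR1C2, AKR1B10, ALDH3A1, EPHX1, FTL, ABCC3 and PIR fell, while BACH1, AKR1C1 and HMOX1 rose. The share that fell was 35.3%. The median was -0.13 over the 34 genes and 0.0006 over all genes. With YAP5SA induced, JUN cells differed from vector cells in a like number of these genes, 11 lower and 4 higher, against 17.2% and 18.4% of all genes tested. KEAP1, SQSTM1, GCLC, GSR, SRXN1, TKT, AKR1C2, AKR1B10, ALDH3A1, ABCC3 and PIR were lower, and NFE2L2, BACH1, AKR1C1 and HMOX1 were higher. The 2 JUN comparisons share no library, and 9 genes fell and 3 rose in both (26.5% and 8.82%), against 12.3% and 13.9% of all genes tested. The median with induction was -0.08, near that of all genes at 0.003, and it was 0.05 without vector Dox replicate 1.

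**Figure D2:**
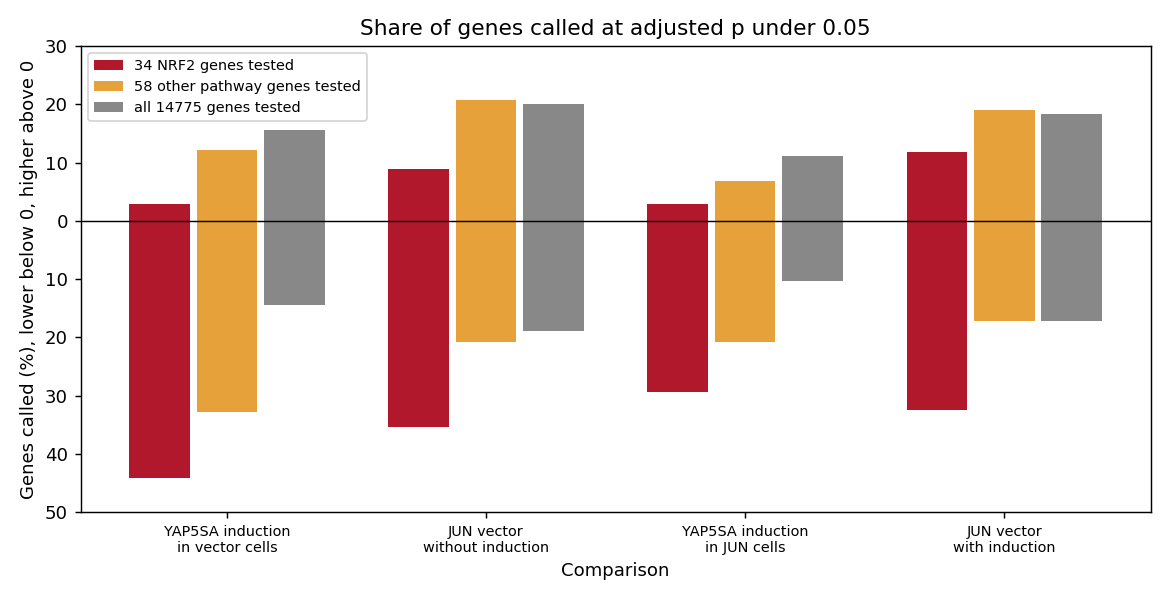
Bars give the percentage of genes called higher (above 0) or lower (below 0) in the 4 pairwise comparisons, for the 34 NRF2 genes, for 58 other genes of the pathway and for all 14775 genes tested. In all 4 comparisons the share of the 34 genes called lower, 29.4% to 44.1%, was above that of all genes, 10.3% to 18.9%, and the share called higher, 2.94% to 11.8%, was below it.

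The effect of induction differed between JUN and vector cells for 1 of the 34 genes. GCLC was lower in this interaction, which is the log2 fold change on induction with JUN less the one with the empty vector, against 0.826% of all genes called lower and 0.291% called higher. At an unadjusted p under 0.05 the edgeR test gave 2 genes lower and 2 higher. No share of all genes was taken at that threshold, so nothing is read from these counts. DESeq2 called 1 lower and 0 higher, where 340 of 20316 genes were called in either direction. For the other 33 genes a difference in induction between the vectors was not called, which does not show that the effects were alike.

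The regulators of NRF2 moved by less than 1.5-fold, apart from BACH1. NFE2L2 (chr2:178083395-178257484, GRCh37) encodes NRF2 itself. Levels of NFE2L2 were 109, 113 and 111 CPM in vector EtOH, 89.1, 89.5 and 84.1 CPM in vector Dox, 126, 124 and 111 CPM in JUN EtOH and 107, 101 and 101 CPM in JUN Dox. Its vector Dox libraries all lay below those of the other groups. NFE2L2 fell on induction in vector cells (log2 fold change -0.345 ± 0.0838, adjusted p = 0.00604) and stood higher in JUN Dox than in vector Dox (log2 fold change 0.23 ± 0.0838, adjusted p = 0.0436). The second of these calls held without vector EtOH replicate 2, vector Dox replicate 1 or 2 or JUN EtOH replicate 3 and was lost without any of the other 8 libraries (adjusted p = 0.0545 to 0.139). It was also lost with no filter on low counts (0.0801) and on the libraries of the comparison alone (0.134). In the GENCODE models the exons of NFE2L2 overlap those of HNRNPA3 and AGPS on the other strand, which cannot be separated where strand is not used. The annotation used in counting is not given, so whether the counted model of NFE2L2 reaches these genes is not known. Mean counts were 6043 for HNRNPA3 and 2664 for AGPS, both above the 2429 of NFE2L2. The part of such reads in its changes was not tested. KEAP1 encodes the adaptor that marks NRF2 for degradation. Vector EtOH libraries held KEAP1 at 104, 106 and 110.5 CPM, vector Dox at 117, 109.8 and 104 CPM, JUN EtOH at 92.9, 91.5 and 97.1 CPM and JUN Dox at 77.7, 86.1 and 90.8 CPM. The JUN Dox libraries were all below the vector Dox libraries, and KEAP1 was lower there (log2 fold change -0.38 ± 0.0875, adjusted p = 0.00417). Without induction the log2 fold change for the JUN vector was -0.19 ± 0.0874, which was not called (adjusted p = 0.0953).

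BACH1 (chr21:30566392-31003071), the repressor that competes with NRF2 and is known for silencing HMOX1, rose with the JUN vector. BACH1 was measured at 42.5, 34.4 and 35.2 CPM in vector EtOH, at 27.1, 37.99 and 36.2 CPM in vector Dox, at 88.7, 72.3 and 68.5 CPM in JUN EtOH and at 67.3, 62.9 and 60.5 CPM in JUN Dox. Each JUN library stood above each vector library. The rise was 2.05-fold without induction (log2 fold change 1.03 ± 0.137, adjusted p = 4.89e-05) and 1.88-fold with it (log2 fold change 0.91 ± 0.138, adjusted p = 0.000141), while induction left it uncalled in both backgrounds (adjusted p = 0.463 and 0.184). The window of BACH1 holds the AP-1 site shown above, and a part of this site in the rise was not tested. Of the other genes with such a site, PIR fell with the JUN vector, and GSTP1, ME1 and OSGIN1 were not called with it. SQSTM1 encodes p62, which binds KEAP1 and delivers it to autophagy. In the 3 vector EtOH libraries SQSTM1 was at 564, 612 and 614 CPM, with 469.5, 410.5 and 440.2 CPM in vector Dox, 433, 418 and 504 CPM in JUN EtOH and 292, 329 and 415 CPM in JUN Dox. Vector EtOH had the highest values, and JUN Dox the lowest apart from 1 library, which lay among those of vector Dox. SQSTM1 fell in all 4 pairwise comparisons, with log2 fold changes between -0.44 and -0.35. Its calls were easily lost when 1 library was left out. In vector cells that was so for vector EtOH replicate 2 or 3 and vector Dox replicate 2 or 3 (adjusted p = 0.0512 to 0.06), and for the JUN vector without induction for vector EtOH replicate 2 or 3 and JUN EtOH replicate 1 or 2 (0.0703 to 0.0961). In JUN cells the call held only without vector Dox replicate 1 or 2 or JUN Dox replicate 3 (otherwise up to 0.175), and for the JUN vector with induction only without JUN EtOH replicate 3 or JUN Dox replicate 3 (otherwise up to 0.171). On the libraries of the comparison alone both of these calls were lost (0.0792 and 0.13). The call for JUN with induction was also lost with no filter on low counts (0.068) and at a minimum mean of 5 CPM (0.0525). The exons of SQSTM1 overlap MGAT4B and MRNIP on the other strand, with mean counts of 4778 and 3905 against 10580 for SQSTM1.

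**Figure D3:**
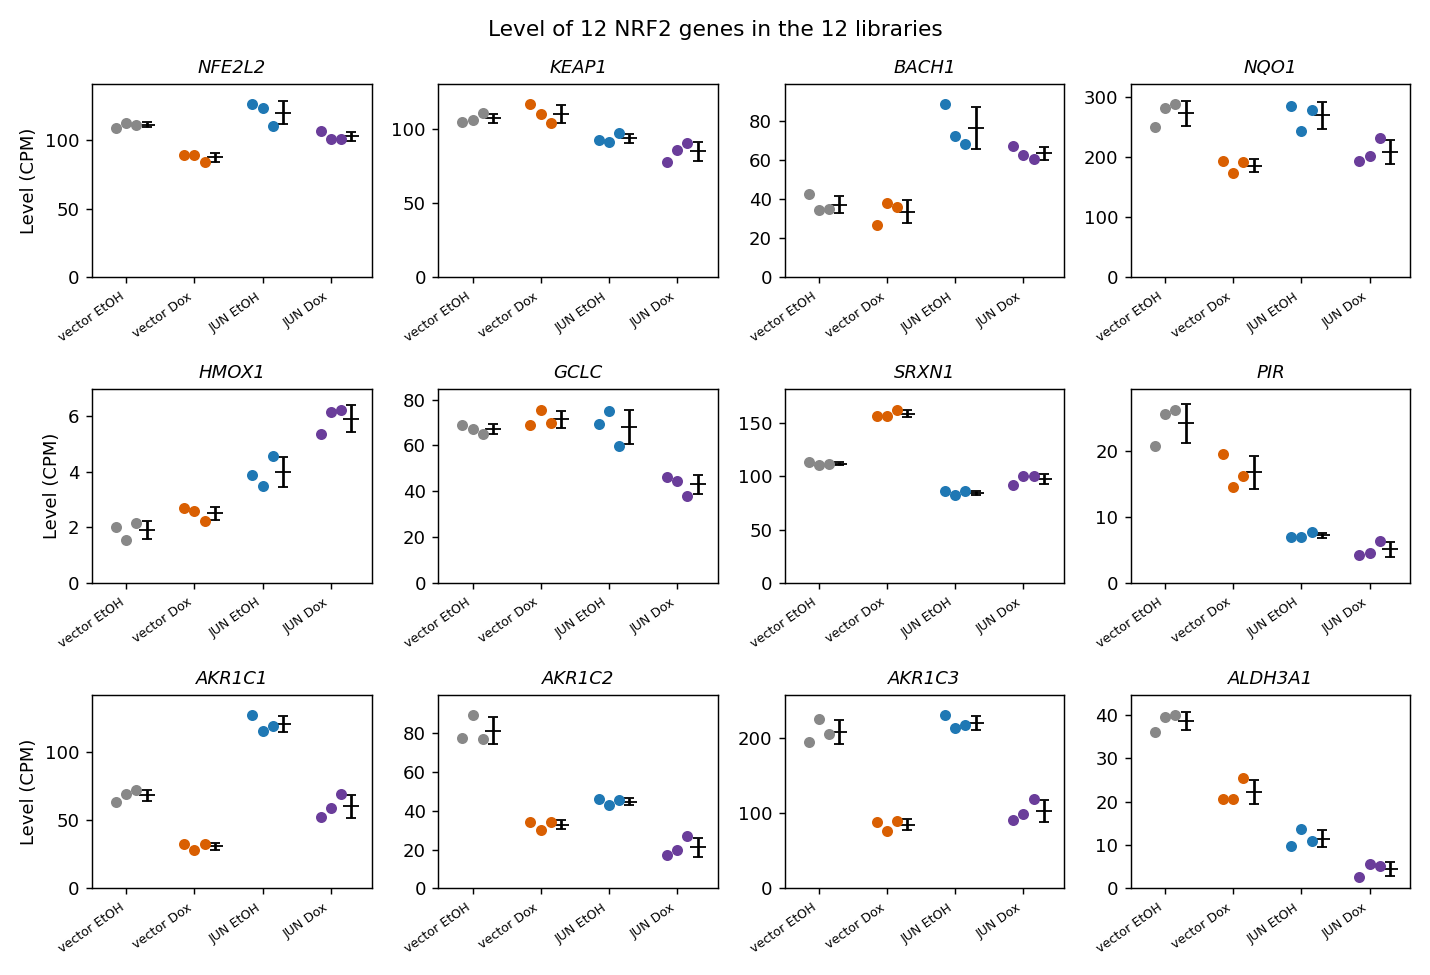
Level in CPM of 12 genes in each library (points, by group along the x axis), with the mean and SD of the 3 libraries of a group beside them. AKR1C1 and AKR1C2 were both lower with Dox, and the JUN vector raised AKR1C1 and lowered AKR1C2. GCLC was low in the JUN Dox group, at 38.2 to 46.3 CPM against 59.9 to 75.5 in the other groups.

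Among the genes of glutathione, GCLC was the one called in the interaction. GCLC (chr6:53362139-53481768) encodes the catalytic subunit of glutamate-cysteine ligase, the rate-limiting step of glutathione synthesis. Levels of GCLC were 69.1, 67.3 and 65.2 CPM in vector EtOH, 68.8, 75.5 and 69.7 CPM in vector Dox, 69.2, 74.97 and 59.9 CPM in JUN EtOH and 46.3, 44.6 and 38.2 CPM in JUN Dox. The JUN Dox libraries lay below all 9 others. GCLC fell 1.58-fold on induction in JUN cells (log2 fold change -0.66 ± 0.104, adjusted p = 0.000379) and in vector cells its log2 fold change was 0.09 ± 0.103 (adjusted p = 0.574). The interaction was -0.75 ± 0.147 with adjusted p = 0.019, and it was not called without vector EtOH replicate 2 or 3 (0.0567 and 0.0795) or JUN EtOH replicate 1 or 2 (0.0616 and 0.0717). GCLM, the modifier subunit of the same enzyme, ranged from 44.8 to 56.8 CPM over the 12 libraries and was called in no comparison. GSR, glutathione reductase, returns oxidized glutathione to its reduced form. Vector EtOH libraries held GSR at 85.02, 94.1 and 81.8 CPM, vector Dox at 108, 89.8 and 75.4 CPM, JUN EtOH at 65.7, 71.5 and 54.1 CPM and JUN Dox at 62.4, 58.9 and 45.3 CPM. Its JUN libraries overlapped none of the vector libraries of the same treatment. GSR fell with the JUN vector without induction (log2 fold change -0.45 ± 0.148, adjusted p = 0.0267) and with it (log2 fold change -0.715 ± 0.148, adjusted p = 0.00188). The former call was lost without vector EtOH replicate 2 (0.0973), JUN EtOH replicate 1 (0.0628) or JUN EtOH replicate 3 (0.107). MGST1, a microsomal glutathione transferase, and GSTP1 were called in no comparison, with log2 fold changes of -0.145 to -0.076 and -0.366 to 0.168. GSTP1 and ME1 hold the joint ARE and AP-1 letters, as does PIR, which fell with JUN.

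In the thioredoxin system SRXN1 stood apart. SRXN1 encodes sulfiredoxin, which repairs over-oxidized peroxiredoxins. SRXN1 was measured at 114, 111 and 112 CPM in vector EtOH, at 157, 156 and 162 CPM in vector Dox, at 85.8, 82.5 and 85.8 CPM in JUN EtOH and at 92.01, 100.3 and 100.3 CPM in JUN Dox. The 3 vector Dox libraries were the highest of the 12. SRXN1 was the only one of the 34 genes that rose on induction in vector cells (log2 fold change 0.50 ± 0.0792, adjusted p = 0.000232), and it fell with the JUN vector both without induction (log2 fold change -0.40 ± 0.0795, adjusted p = 0.00122) and with it (log2 fold change -0.70 ± 0.0795, adjusted p = 9.91e-06). In JUN cells its induction was 0.20 ± 0.0795 on the log2 scale (adjusted p = 0.0842), and the interaction was -0.30 ± 0.112 (adjusted p = 0.346). Of the 75-base windows in its transcript, 90.5% also occur in an annotated read-through transcript, so its count may be shared with that model. TXNRD1, thioredoxin reductase, was at 1605 to 1889 CPM in vector EtOH and 1161 to 1408 CPM in JUN EtOH, and fell there (log2 fold change -0.42 ± 0.132, adjusted p = 0.0214). That call was lost without vector EtOH replicate 2 (0.092) or 3 (0.0516) or JUN EtOH replicate 1 (0.109) or 2 (0.0555). With induction the log2 fold change was -0.295 ± 0.132 (adjusted p = 0.0927). TXN, thioredoxin, and PRDX1, a peroxiredoxin, were called in no comparison.

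TKT was the member of the NADPH group that moved. TKT encodes transketolase of the pentose phosphate pathway. In the 3 vector EtOH libraries TKT was at 836, 834 and 951 CPM, with 560.1, 668 and 591 CPM in vector Dox, 512, 506 and 608 CPM in JUN EtOH and 394, 479 and 542 CPM in JUN Dox. Vector EtOH was the highest group, and no library of the other groups reached it. TKT fell on induction in vector cells (log2 fold change -0.53 ± 0.132, adjusted p = 0.00743) and with the JUN vector without induction (log2 fold change -0.69 ± 0.133, adjusted p = 0.00104), and with the JUN vector under induction (log2 fold change -0.36 ± 0.132, adjusted p = 0.0449). The last of these calls held without vector Dox replicate 1, JUN EtOH replicate 3 or JUN Dox replicate 3 and was lost without any of the other 9 libraries (adjusted p = 0.0577 to 0.161). It was also lost with no filter on low counts (0.0636) and on the libraries of the comparison alone (0.117). PGD and TALDO1 of the same pathway and malic enzyme ME1 were called in no comparison, and their log2 fold changes lay between -0.23 and 0.02.

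NQO1 (chr16:69740899-69760571), a quinone reductase and a common readout of NRF2, fell on induction in both backgrounds and did not pass the test for the JUN vector. Levels of NQO1 were 249, 282 and 288 CPM in vector EtOH, 193, 173 and 192 CPM in vector Dox, 285, 244 and 279 CPM in JUN EtOH and 193, 202 and 231 CPM in JUN Dox. The Dox libraries lay below the EtOH libraries of the same vector. The fall was 1.47-fold in vector cells (log2 fold change -0.555 ± 0.106, adjusted p = 0.00113) and 1.29-fold in JUN cells (log2 fold change -0.37 ± 0.106, adjusted p = 0.0225). The latter call was lost without JUN EtOH replicate 1 (0.0964) or 3 (0.0744) or JUN Dox replicate 1 (0.058) or 2 (0.0867). For the JUN vector the log2 fold changes were -0.02 ± 0.106 and 0.17 ± 0.106 (adjusted p = 0.897 and 0.23).

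The 3 AKR1C genes, aldo-keto reductases that act on steroids and reactive carbonyls, lie together on chromosome 10 and were among the most lowered by induction. Their coding sequences are so alike that reads can be misassigned. The coding sequences of AKR1C1 and AKR1C2, each 969 bases long, differ at 19 bases (98.0% identity), and 33.4% of their aligned 75-base windows are identical. AKR1C1 and AKR1C3 are 91.4% identical, with 7.7% of windows identical. The stretch of exon 2 with the most differences between AKR1C1 and AKR1C2 within 1 exon (coding bases 88 to 162, GRCh37) is shown with capitals at the bases that are not the same in all 3.
AKR1C1, chr10:5008109-5008183, plus strand: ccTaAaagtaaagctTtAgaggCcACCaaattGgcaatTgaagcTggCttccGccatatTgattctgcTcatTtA
AKR1C2, chr10:5043796-5043870, minus strand: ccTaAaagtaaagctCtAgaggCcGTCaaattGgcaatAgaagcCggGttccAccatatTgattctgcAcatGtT
AKR1C3, chr10:5138605-5138679, plus strand: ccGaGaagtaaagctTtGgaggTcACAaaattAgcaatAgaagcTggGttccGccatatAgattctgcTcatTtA
AKR1C2 differs from AKR1C1 at 10 of these 75 bases and AKR1C3 at 9. Over whole transcripts, 16.8% of the 75-base windows of AKR1C1, 36.0% of those of AKR1C2 and 12.3% of those of AKR1C3 occur in another gene, so the levels below are uncertain by the reads that fall there.

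Vector EtOH libraries held AKR1C1 at 63.9, 69.3 and 72.1 CPM, vector Dox at 32.7, 28.1 and 32.6 CPM, JUN EtOH at 127, 116 and 119 CPM and JUN Dox at 52.7, 59.3 and 69.3 CPM. Here the Dox libraries were below, and the JUN libraries above, their controls. AKR1C2 was measured at 77.8, 89.3 and 77.2 CPM in vector EtOH, at 34.1, 30.3 and 34.2 CPM in vector Dox, at 45.9, 42.9 and 45.8 CPM in JUN EtOH and at 17.3, 19.6 and 26.8 CPM in JUN Dox. AKR1C2 was highest in vector EtOH and lowest in JUN Dox. In the 3 vector EtOH libraries AKR1C3 was at 194, 226 and 205 CPM, with 88.8, 76.4 and 89.6 CPM in vector Dox, 230.0, 213 and 217 CPM in JUN EtOH and 90.3, 98.8 and 119 CPM in JUN Dox. AKR1C3 separated by doxycycline, while its EtOH groups overlapped. Induction in vector cells lowered AKR1C1 2.19-fold (log2 fold change -1.13 ± 0.111, adjusted p = 2.42e-06), AKR1C2 2.48-fold (log2 fold change -1.31 ± 0.135, adjusted p = 4.33e-06) and AKR1C3 2.45-fold (log2 fold change -1.29 ± 0.114, adjusted p = 8.62e-07). In JUN cells the log2 fold changes were -0.999 ± 0.109, -1.07 ± 0.137 and -1.10 ± 0.113. All 6 calls held under each of the 20 alternative settings run. The genes parted under JUN. AKR1C1 rose 1.77-fold without induction (log2 fold change 0.82 ± 0.108, adjusted p = 4.46e-05) and 1.94-fold with it (log2 fold change 0.96 ± 0.11, adjusted p = 1.19e-05). AKR1C2 fell 1.82-fold without induction (log2 fold change -0.86 ± 0.133, adjusted p = 0.000181) and 1.54-fold with it (log2 fold change -0.63 ± 0.137, adjusted p = 0.00278). AKR1C3 was not called (adjusted p = 0.6 and 0.0691). The ratio of AKR1C1 to AKR1C2 counts was 0.776 to 0.958 in the 6 vector libraries and 2.58 to 3.05 in the 6 JUN libraries.

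The AKR1B genes behaved differently from each other. AKR1B1, aldose reductase, was called in no comparison. Levels of AKR1B1 were 155, 179.5 and 159 CPM in vector EtOH, 157, 124 and 126 CPM in vector Dox, 208, 189.5 and 238 CPM in JUN EtOH and 134, 160.0 and 205 CPM in JUN Dox. Its groups overlapped between treatments in both backgrounds. AKR1B10, a related reductase known for its response to NRF2, was near the floor. Vector EtOH libraries held AKR1B10 at 1.67, 1.85 and 2.11 CPM, vector Dox at 0.523, 0.496 and 0.496 CPM, JUN EtOH at 0.088, 0.295 and 0.282 CPM and JUN Dox at 0.0502, 0.0864 and 0.0355 CPM. In counts these were 37 to 47 per library in vector EtOH and 11 to 12 in vector Dox, with 2 to 7 in JUN EtOH and 1 to 2 in JUN Dox. AKR1B10 was called lower on induction in vector cells and with the JUN vector in both treatments (adjusted p = 0.000474, 2.03e-05 and 0.000706), and missed the threshold on induction in JUN cells (0.0507). On counts summed over a group, the ratio was 0.271 for induction in vector cells (exact conditional 95% interval 0.181 to 0.396), 0.119 for JUN without induction (0.0645 to 0.203) and 0.111 for JUN with induction (0.0287 to 0.311), where the interval does not hold the spread between libraries.

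ALDH3A1 and EPHX1 fell with both manipulations. ALDH3A1 (chr17:19641297-19652256) encodes an aldehyde dehydrogenase. ALDH3A1 was measured at 36.2, 39.7 and 39.9 CPM in vector EtOH, at 20.7, 20.6 and 25.6 CPM in vector Dox, at 9.77, 13.7 and 11.03 CPM in JUN EtOH and at 2.71, 5.62 and 5.26 CPM in JUN Dox. The 4 groups did not overlap. ALDH3A1 fell on induction 1.73-fold in vector cells (log2 fold change -0.79 ± 0.181, adjusted p = 0.00401) and 2.51-fold in JUN cells (log2 fold change -1.325 ± 0.206, adjusted p = 0.000344), and with the JUN vector 3.36-fold without induction (log2 fold change -1.75 ± 0.188, adjusted p = 6.19e-06) and 4.85-fold with it (log2 fold change -2.28 ± 0.203, adjusted p = 9.42e-07). EPHX1 encodes microsomal epoxide hydrolase, which opens reactive epoxides. In the 3 vector EtOH libraries EPHX1 was at 135, 146 and 159 CPM, with 64.01, 71.1 and 82.5 CPM in vector Dox, 78.5, 71.9 and 88.05 CPM in JUN EtOH and 44.5, 53.5 and 69.9 CPM in JUN Dox. Vector EtOH stood above the other 9 libraries. EPHX1 fell 2.03-fold on induction in vector cells (log2 fold change -1.02 ± 0.147, adjusted p = 0.000105), 1.42-fold in JUN cells (log2 fold change -0.50 ± 0.147, adjusted p = 0.0236) and 1.85-fold with JUN without induction (log2 fold change -0.89 ± 0.147, adjusted p = 0.000311). In JUN cells the call was lost without JUN EtOH replicate 1 (0.0592) or 3 (0.0953) or JUN Dox replicate 1 (0.0758) or 2 (0.0867), and JUN with induction was not called (adjusted p = 0.0611). Its exons overlap TMEM63A on the other strand, with a mean count of 714 against 2045 for EPHX1. CBR1, a carbonyl reductase, and UGDH, which makes the sugar donor for glucuronidation, were called in no comparison. The exons of CBR1 overlap CBR1-AS1 on the other strand, with a mean count of 1978 against 1976 for CBR1. Those of UGDH overlap UGDH-AS1 on the other strand, with 455.8 against 1131.

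**Figure D4:**
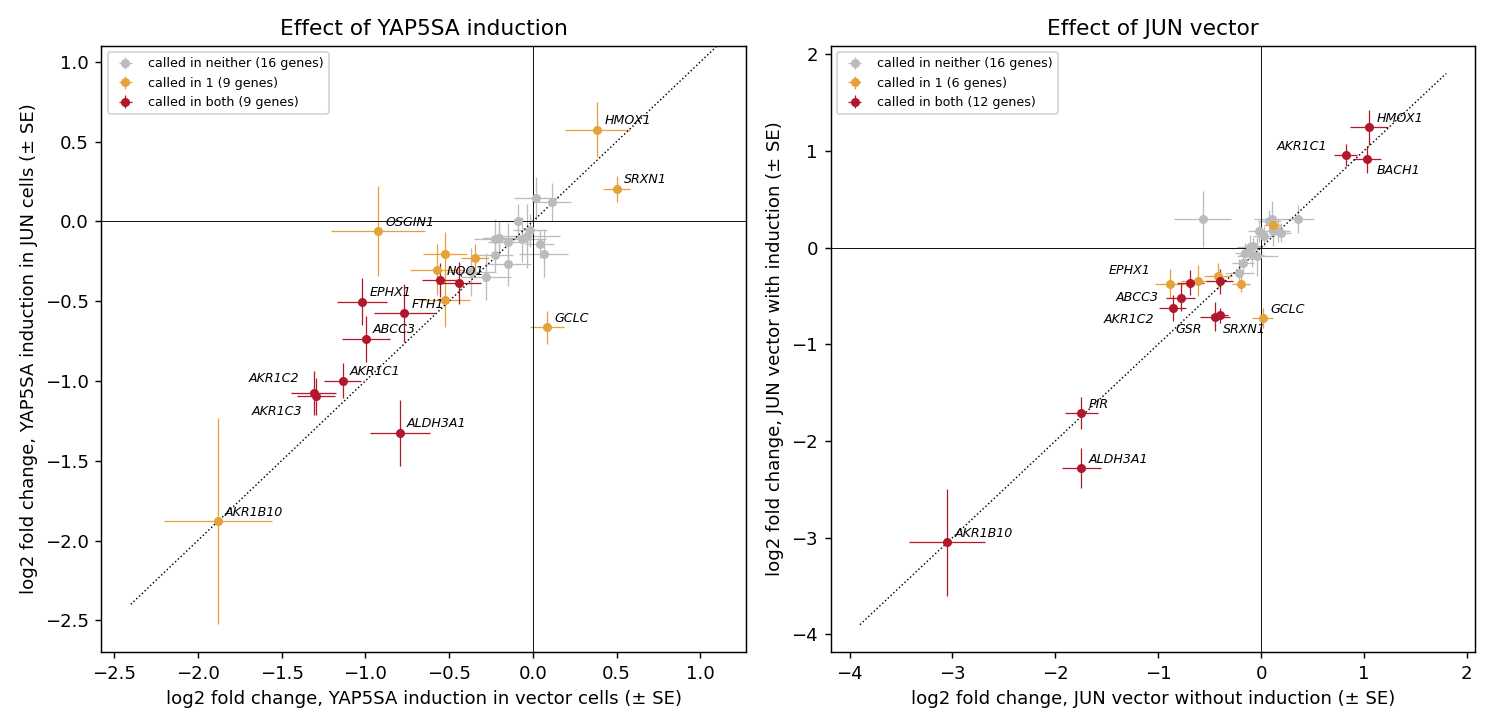
Log2 fold change with SE of the 34 tested genes for YAP5SA induction in JUN against vector cells (left) and for the JUN vector with against without induction (right), on axes that share no library within a panel. The dotted line marks equal effects, and GCLC, the gene called in the interaction, lies off it in both panels, at 0.09 and -0.66 on the left and 0.02 and -0.73 on the right. Genes not called in the interaction also lie off it, among them OSGIN1, with an interaction of 0.86, ALDH3A1 and EPHX1.

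HMOX1 rose with JUN, while most of the genes that were called with the JUN vector fell. HMOX1 (chr22:35776354-35790207) encodes haem oxygenase-1, which breaks down haem, and is known as a target of NRF2 that BACH1 represses. Levels of HMOX1 were 2.02, 1.55 and 2.15 CPM in vector EtOH, 2.7, 2.57 and 2.23 CPM in vector Dox, 3.87, 3.5 and 4.55 CPM in JUN EtOH and 5.37, 6.14 and 6.22 CPM in JUN Dox. Each JUN library was above each vector library, at 83 to 175 counts against 31 to 62. The rise was 2.07-fold without induction (log2 fold change 1.05 ± 0.188, adjusted p = 0.000587) and 2.37-fold with it (log2 fold change 1.24 ± 0.178, adjusted p = 8.82e-05). Induction raised it in JUN cells (log2 fold change 0.58 ± 0.171, adjusted p = 0.0259), and in vector cells the log2 fold change was 0.38 ± 0.194 (adjusted p = 0.156). HMOX1 and its repressor BACH1 were thus both higher in JUN cells.

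The ferritin genes fell on induction in vector cells. Vector EtOH libraries held FTH1 at 5684, 6080 and 4793 CPM, vector Dox at 3360, 3003 and 3371 CPM, JUN EtOH at 5413, 5994 and 6454 CPM and JUN Dox at 2737, 4378 and 4870 CPM. In vector cells the Dox libraries were all lower than the EtOH libraries. FTH1 fell 1.70-fold there (log2 fold change -0.77 ± 0.182, adjusted p = 0.00529) and 1.49-fold in JUN cells (log2 fold change -0.58 ± 0.182, adjusted p = 0.035), where leaving out any one library of the JUN EtOH or the JUN Dox group other than JUN Dox replicate 3 lost the call (adjusted p = 0.0534 to 0.107). On the libraries of the comparison alone the call in JUN cells was lost too (0.0791). Of the 75-base windows of FTH1 31.5% occur in other genes, mostly ferritin pseudogenes. FTL was measured at 546, 708 and 688 CPM in vector EtOH, at 426, 394 and 486 CPM in vector Dox, at 404, 384 and 481 CPM in JUN EtOH and at 267, 341 and 420.5 CPM in JUN Dox. FTL, the light chain, was highest in vector EtOH. It fell on induction in vector cells (log2 fold change -0.57 ± 0.161, adjusted p = 0.0143) and with JUN without induction (log2 fold change -0.61 ± 0.161, adjusted p = 0.008).

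Of the efflux pumps, ABCC3 fell and ABCC1 did not pass the test. In the 3 vector EtOH libraries ABCC3 was at 258, 226 and 225 CPM, with 94.4, 126 and 135 CPM in vector Dox, 137, 123 and 153 CPM in JUN EtOH and 70.8, 80.5 and 96.5 CPM in JUN Dox. The vector EtOH libraries were the highest and the JUN Dox libraries the lowest, with 1 vector Dox library, at 94.4 CPM, within the range of JUN Dox. ABCC3 fell on induction in vector cells (log2 fold change -0.997 ± 0.143, adjusted p = 9.8e-05) and in JUN cells (log2 fold change -0.735 ± 0.143, adjusted p = 0.00199), and with the JUN vector 1.72-fold without induction (log2 fold change -0.78 ± 0.142, adjusted p = 0.00068) and 1.43-fold with it (log2 fold change -0.52 ± 0.143, adjusted p = 0.0115). The last call was lost without vector Dox replicate 3 (0.0592). ABCC1 was at 110.4 to 160.0 CPM over the 12 libraries, with log2 fold changes of 0.113 to 0.175.

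PIR encodes pirin, an iron-binding nuclear protein. Levels of PIR were 20.8, 25.6 and 26.2 CPM in vector EtOH, 19.5, 14.6 and 16.2 CPM in vector Dox, 6.95, 6.91 and 7.7 CPM in JUN EtOH and 4.21, 4.58 and 6.4 CPM in JUN Dox. Every JUN library was below every vector library. PIR fell 3.36-fold with the JUN vector without induction (log2 fold change -1.75 ± 0.162, adjusted p = 1.33e-06) and 3.28-fold with it (log2 fold change -1.71 ± 0.167, adjusted p = 2.18e-06), and the JUN calls held under each of the 20 alternative settings run. On induction it fell in vector cells (log2 fold change -0.53 ± 0.153, adjusted p = 0.017), a call lost without vector EtOH replicate 2 or 3 or vector Dox replicate 2 or 3 (adjusted p = 0.0557 to 0.0709), and in JUN cells it was at -0.49 ± 0.172 (adjusted p = 0.0551). Its start holds the joint ARE and AP-1 letters shown above. OSGIN1, an oxidative stress inducible growth inhibitor, was low at 34 to 141 counts per library, and its log2 fold change on induction was -0.92 ± 0.28 in vector cells (adjusted p = 0.0218) and -0.06 ± 0.283 in JUN cells (adjusted p = 0.915). The former call was lost without vector EtOH replicate 1 or 3 or vector Dox replicate 2 or 3 (adjusted p = 0.0675 to 0.09). The interaction of 0.86 ± 0.398 was not called (adjusted p = 0.537), and OSGIN1 shares exon sequence with MLYCD on its own strand. The mean count of MLYCD was 103.2 against 75.5 for OSGIN1.

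A total of 12 of the 34 tested genes were called in no comparison, namely GCLM, MGST1, GSTP1, TXN, PRDX1, PGD, TALDO1, ME1, AKR1B1, CBR1, UGDH and ABCC1. They were 35.3% of the 34, against 39.4% of all genes tested. Of the 10 with a promoter window, GCLM, MGST1, GSTP1, PGD, ME1 and CBR1 hold an ARE core there, and of the 16 called genes with a window EPHX1, KEAP1, PIR and TXNRD1 do. SQSTM1, AKR1C2, ALDH3A1 and ABCC3 were lower in all 4 pairwise comparisons, which was 11.8% of the 34 against 0.805% of all genes tested, with the calls of SQSTM1 and one of ABCC3 lost without single libraries as given above.

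A list of 60 other genes of the pathway was read beside these, of which 58 were tested. On induction 19 fell and 7 rose in vector cells (32.8% and 12.1%, against 14.4% and 15.6% of all genes tested), and 12 fell and 4 rose in JUN cells (20.7% and 6.9%, against 10.3% and 11.2%). With the JUN vector 12 fell and 12 rose without induction (20.7% each), and 10 fell and 11 rose with it (17.2% and 19.0%), shares near those of all genes tested, 18.9% and 20.1% without induction and 17.2% and 18.4% with it. The medians were -0.19, -0.19, -0.09 and 0.02. SOD2, TXNIP, GLRX and GPX3 fell on induction in both backgrounds and rose with the JUN vector in both treatments. SOD2, the mitochondrial superoxide dismutase, had a log2 fold change of -1.39 ± 0.215 for induction in vector cells and -1.775 ± 0.217 in JUN cells, and 1.78 ± 0.217 and 1.40 ± 0.215 for the JUN vector without and with induction. Levels of GLRX, a glutaredoxin, were 23.2 ± 2.07 CPM (SD) in vector EtOH and 6.18 ± 1.03 in vector Dox, with 32.4 ± 1.44 in JUN EtOH and 13.5 ± 0.985 in JUN Dox, with log2 fold changes of -1.905 ± 0.13 and -1.26 ± 0.122 on induction and 0.49 ± 0.119 and 1.13 ± 0.131 for JUN. TXNIP, the thioredoxin-binding protein, had log2 fold changes of -1.78 ± 0.229 and -1.38 ± 0.224 on induction and 0.63 ± 0.22 and 1.03 ± 0.226 for JUN. The call for JUN without induction was lost without vector EtOH replicate 1 or 3 (adjusted p = 0.0741 and 0.129) or JUN EtOH replicate 1 or 2 (0.0887 and 0.155). It was also lost with no filter on low counts (0.0785). The pump ABCC2 fell by 1.65 ± 0.129 and by 1.35 ± 0.131 on the log2 scale on induction, and with JUN by 0.735 ± 0.125 and 0.43 ± 0.132. The call for JUN with induction was lost without vector Dox replicate 2 or 3 (0.0913 and 0.0614) or JUN Dox replicate 2 (0.0568). It was also lost on the libraries of the comparison alone (0.0797). GPX3, a secreted glutathione peroxidase, rose with the JUN vector by 2.02 ± 0.225 and 1.90 ± 0.233 and fell by 0.948 ± 0.235 and 1.07 ± 0.216 on induction. ALDH1A3 rose with the JUN vector by 1.795 ± 0.125 and 1.06 ± 0.123, and on induction in vector cells by 0.77 ± 0.123. NFE2L3, a relative of NRF2, and RPIA of the pentose phosphate pathway rose on induction in vector cells by 1.25 ± 0.153 and 1.02 ± 0.139 and in JUN cells by 0.995 ± 0.149 and 0.743 ± 0.142. With the JUN vector RPIA fell by 0.488 ± 0.143, a call lost without vector EtOH replicate 2 (0.0717) or JUN EtOH replicate 1 (0.0516), and by 0.76 ± 0.137. Of the small MAF genes, which encode partners of NRF2, MAFK and MAFF are named after their values were seen. MAFF rose in all 4 comparisons, by 0.99 ± 0.128 and 0.50 ± 0.126 on induction and by 0.82 ± 0.128 and 0.335 ± 0.125 with JUN. The last of these held only without vector Dox replicate 1 or JUN EtOH replicate 3 when 1 library was left out (otherwise 0.0526 to 0.162), and the call on induction in JUN cells was lost without JUN EtOH replicate 3 (0.0526). With JUN under induction the MAFF call was lost under 14 of 20 alternatives. These included RLE size factors (0.0501), upper-quartile factors (0.0517), the GC offset (0.0688) and the libraries of the comparison alone (0.0937). MAFK rose on induction in vector cells by 0.78 ± 0.0865 (adjusted p = 8.31e-06) and was at 0.21 ± 0.0863 in JUN cells (adjusted p = 0.0957), and with JUN under induction it fell by 0.524 ± 0.086.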

How the data were processed

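Poly(A) RNA of 12 libraries in 4 groups of 3 was analysed. The authors deposited raw counts per gene for each library under Entrez gene IDs, and 99.4% of the IDs were matched to a symbol. The submitters' processing notes name cutadapt 4.2 and Bowtie2 2.3.5.1, and the authors tested with DESeq2. The annotation and the use of strand in counting are not given in the sources used here, so reads of overlapping genes cannot be separated. CBR1 and CBR1-AS1, which overlap on opposite strands, had mean counts of 1976 and 1978, near equal as when strand is not used. Counts were scaled by TMM and tested with edgeR 4.0.16 (R 4.3.3), quasi-likelihood with robust fitting, on 1 model of all 12 libraries, after filterByExpr (minimum count 10, total 15), which kept 14775 genes. Genes were called at a Benjamini-Hochberg adjusted p under 0.05 over these genes, and adjusted p values in the text are from this test unless another is named. Standard errors were taken as the fold change in log2 over the square root of F. Gene models and overlaps are from GENCODE on GRCh37.

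Total counts were 18594867 to 28993487, and the common biological coefficient of variation was 12.5%. Members and lists were chosen with earlier results of these data known. Values in every library are given for the regulators, NQO1, HMOX1, the AKR1C and AKR1B genes and the 4 highest and 4 lowest called members of each pairwise comparison at a mean of at least 5 CPM. FTH1, FTL, TKT and ABCC3 were added after their values were seen. Other pathway genes were named where called with a log2 fold change of at least 1 in size at a mean of at least 5 CPM, with MAFK and MAFF added after their values were seen. Alternatives were DESeq2 1.42.0, other scalings and filters, the libraries of a comparison alone, a replicate block, each library left out and a GC offset. The GC offset was chosen after seeing the data. A marker gene of the leukocyte list is not reported here.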

Additional observations from a re-analysis of the deposited data

Results flagged for a closer look

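The effect of induction differed between JUN and vector cells, by a test of the difference itself, for GCLC among the 34 tested genes and for MAFK among the other pathway genes. The interaction of GCLC was -0.75 on the log2 scale (adjusted p = 0.019). It was called under 15 of 19 alternatives, and was lost without vector EtOH replicate 2 or 3 (0.0567 and 0.0795) or JUN EtOH replicate 1 or 2 (0.0616 and 0.0717). The interaction of MAFK, which encodes a small MAF partner of NRF2, was -0.57 (adjusted p = 0.0337), and it was lost under 11 of 19 alternatives. These were no filter on low counts (0.0618) and leaving out any library other than vector Dox replicate 1 or JUN Dox replicate 3 (0.0532 to 0.125).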

How the results depend on the processing

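Of the 58 calls of a gene in a comparison, 41 held under each alternative run. Over 1152 recomputed values, 1060 kept the call, 92 lost it and 0 changed sign. On induction in JUN cells, where 1 gene was higher, DESeq2 called 2, a minimum mean of 5 CPM 0, a GC offset chosen after seeing the data 2, and leaving out 1 library 0 to 2. There 10 genes were lower, and leaving out 1 library gave 6 to 12 lower genes in all, with 6 without JUN Dox replicate 1 or 2. Over all genes tested, calls there in either direction were 3442 of 20316 with DESeq2 and 2680 of 11404 at 5 CPM. They were 3506 of 14775 with the GC offset and 2082 to 3861 with 1 library left out. For the JUN vector without induction, leaving out 1 library gave 9 to 12 lower genes, with 3823 to 6765 of all genes called in either direction. With induction it gave 8 to 14 lower genes, with 4025 to 5539 of all genes called. The interaction gave 0 to 1 lower genes when 1 library was left out, where 97 to 242 of all genes tested were called in either direction. The median for induction in vector cells, -0.254, ranged from -0.385 without vector Dox replicate 1 to -0.227. The cause was not tested. Fits on the libraries of a comparison alone give no interaction.

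Replicate numbers were not used to pair the libraries in the main model, and whether they do pair them was not settled. Correlations of their deviations ran from -0.258 to 0.466 over 18 pairs with the same number (median 0.088, 7 over 0.1). In 36 pairs with different numbers the median was -0.0478, with 5 over 0.1. Same-number values were 0.283, 0.0118 and 0.466 between JUN EtOH and JUN Dox. Between vector EtOH and vector Dox they were -0.23, -0.258 and 0.106. With a replicate block, 1 gene was higher and 15 lower on induction in vector cells, 3 and 13 with JUN without induction, 1 and 10 on induction in JUN cells, 4 and 13 with JUN under induction, and 0 and 1 in the interaction. Of all 14775 genes, calls in either direction with the block were 4588, 5871, 3256, 5329 and 197, in that order. The block medians ran from -0.253, on induction in vector cells, to 0.069, in the interaction. AKR1B10, at 1 to 7 counts in JUN libraries, and GPX2, at 0 to 8, are limited by depth.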
